A study of Mus musculus with 4 samples.

Results

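The Id genes Id1, Id2, Id3 and Id4 were examined in RNA-seq data of sorted mouse retinal cells. They were taken by symbol from the gene tables, and all 4 were found among the 21830 genes analyzed. Retinas of FVB/N mice carrying EGFP under a fragment of the Hes1 promoter were dissociated at postnatal day 1 (P1) or postnatal day 4 (P4) with no further treatment. EGFP-positive cells (pHes1_EPCs) and EGFP-negative cells (pHes1_ENCs) were then separated with a cell sorter. RNA of each fraction at each age gave 1 library, so there are 4 libraries in 4 groups, namely P1 pHes1_ENC, P1 pHes1_EPC, P4 pHes1_ENC and P4 pHes1_EPC. Both fractions of an age come from mice with the same transgene, and a cell is positive only as far as the promoter fragment drives a destabilized EGFP in it. The number of mice behind a library was not given in the sources used here. With 1 library in each group the spread between mice or sorts is unknown and no test was possible.

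Id proteins are helix-loop-helix proteins without the basic region that contacts DNA. They bind E proteins, the broadly expressed basic helix-loop-helix (bHLH) factors, and thereby keep them from pairing with tissue-restricted bHLH factors such as the proneural proteins. In neural tissue they are known for holding progenitors and glia back from neuronal differentiation, and BMP signaling through Smad proteins is their best known inducer.

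In NCBI37/mm9, the genome used for the gene tables, Id1 lies on the plus strand of chromosome 2 from 152562010 to 152563146. Id2 lies on the minus strand of chromosome 12 from 25778664 to 25780957. Id3 lies on the plus strand of chromosome 4 from 135699737 to 135701307, and Id4 on the plus strand of chromosome 13 from 48356796 to 48359405. All are short genes. The longest spliced coding transcript of GENCODE vM1, on the same build, has 2 exons and 934 bases for Id1, 3 exons and 1270 bases for Id2, 3 exons and 1278 bases for Id3, and 3 exons and 1660 bases for Id4. The coding part takes 357 bases in Id3, the shortest, and 483 bases in Id4, the longest.

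RefSeq promoters (GRCm38.p6) were matched by symbol for 3 of the 4 genes, Id2, Id3 and Id4, but not for Id1. The 250 bases before the start were searched on both strands for the E-box CANNTG bound by bHLH factors, the N-box CACNAG bound by Hes repressors, the Rbpj-type motif TGGGAA, the GC-rich motif GGCGCC found in BMP-responsive elements, the CCAAT box and the GC-box GGGCGG. The windows of Id2 and Id4 are shown, as the matched genes whose window lies outside annotated exons of the gene. Capitals mark E-box, GGCGCC and CCAAT matches, a CCAAT box on the opposite strand reading ATTGG. The window of Id2 is chr12:25096093-25096342 on the minus strand, and the same bases occur once on chromosome 12 of NCBI37/mm9, from 25780958 to 25781207. The window of Id4 is chr13:48260866-48261115 on the plus strand, and its bases occur once on chromosome 13 of NCBI37/mm9, from 48356235 to 48356484. It ends before the Id4 gene model given above begins, since RefSeq places the start of Id4 further upstream, and positions below are counted from the RefSeq starts.
Id2: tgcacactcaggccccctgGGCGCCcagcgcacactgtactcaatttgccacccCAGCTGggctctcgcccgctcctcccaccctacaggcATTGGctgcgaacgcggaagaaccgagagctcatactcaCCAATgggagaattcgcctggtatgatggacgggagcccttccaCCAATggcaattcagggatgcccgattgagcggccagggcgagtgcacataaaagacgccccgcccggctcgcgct
Id4: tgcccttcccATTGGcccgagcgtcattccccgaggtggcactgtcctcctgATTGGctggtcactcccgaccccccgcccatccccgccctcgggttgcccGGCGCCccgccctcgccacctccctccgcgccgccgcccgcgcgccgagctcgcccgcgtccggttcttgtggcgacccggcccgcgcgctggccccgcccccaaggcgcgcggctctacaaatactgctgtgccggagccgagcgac
In Id2 there was 1 E-box, from -196 to -191 counted from the RefSeq start, 1 GGCGCC from -231 to -226, and 3 CCAAT boxes. In Id4 there was 1 GGCGCC, from -148 to -143, together with 2 CCAAT boxes and no E-box. An N-box and an Rbpj-type motif, which overlaps a CCAAT box by 1 base, were found in Id4 only, at -82 and -245. The window of Id3 lies within an annotated GENCODE exon of Id3 and is not printed. It held no match to these motifs other than 2 overlapping GC-boxes, and GC-boxes were found 1 time in Id2 and 5 times in Id4. Among 32851 RefSeq promoters of this length an E-box is found in 66.2%, an N-box in 36.7%, a CCAAT box in 33.8%, a GC-box in 32.7%, an Rbpj-type motif in 21.6% and GGCGCC in 9.59%. These matches describe letters and not bound sites.

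Expression is given as FPKM, a fragment number scaled to transcript length and to the mapped fragments of the library, estimated by Cufflinks with a 95% interval. Each interval comes from 1 library and does not cover the spread between mice or sorts. FPKM is divided by transcript length, so levels of different genes can be set side by side. Each Id gene has 1 line in the tables and status OK in all libraries. Over all genes the FPKM sum to 277425 to 303864 in 3 libraries and to 372002 in P4 pHes1_EPC. The intervals were offset from the FPKM they belong to. For the Id genes the interval midpoint lay at 79.7% to 98.9% of the FPKM, and 10 of the 16 values lay above their own interval, compared with 9.06% to 10.4% of all lines lying outside theirs. If each side of an interval is taken as 2 Poisson standard deviations, the intervals correspond to 64 to 2211 reads for an Id gene.

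Id1, a BMP-induced member of the family, had an FPKM of 24.4 in pHes1_ENC and 103 in pHes1_EPC at P1, and 6.82 and 81.4 at P4. For Id2, which besides E proteins can bind the retinoblastoma protein, the FPKM was 23.5, 115, 5.99 and 103, in the same order. For Id3, a close relative of Id1, it was 19.1, 125, 6.49 and 188. These 3 genes were high in both pHes1_EPC libraries, intermediate in P1 pHes1_ENC and low in P4 pHes1_ENC. The FPKM of Id4, known from neural precursors and astrocytes, was 13.9 in pHes1_ENC and 24.7 in pHes1_EPC at P1, and 2.78 and 15.1 at P4. It was the least expressed Id gene in every library, and its P4 pHes1_EPC level was close to its P1 pHes1_ENC level. In P1 pHes1_EPC, Id1, Id2 and Id3 stood at places 424, 360 and 316 among all genes from the top, whereas in P4 pHes1_ENC the 4 genes stood at places 7802 to 9835.

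**Figure D1:**
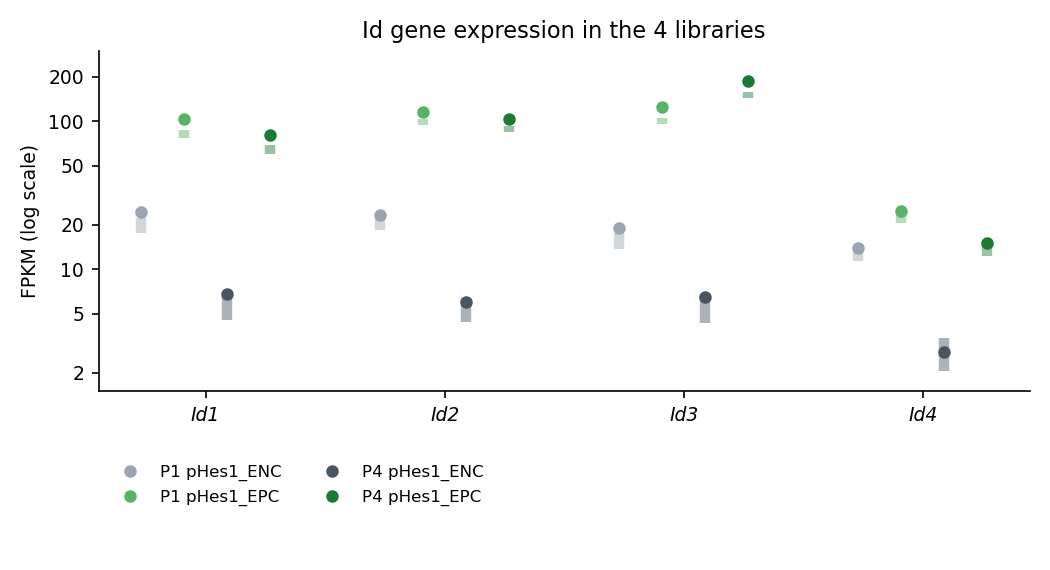
FPKM of each Id gene in the 4 libraries (points, log scale), with the deposited 95% interval of the same value as a bar. Both pHes1_EPC points lie above the pHes1_ENC point of the same age for each gene, with the narrowest gap for Id4 at P1 (24.7 against 13.9), and many points lie above their own bar.

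Whether the Id genes belong to the genes enriched in the Hes1-positive fraction was asked within each age. The value of pHes1_ENC was subtracted from that of pHes1_EPC on the log2(FPKM + 1) scale, and more than 2-fold means a difference above 1. The pseudocount of 1 draws low values toward 0. The ratio of the FPKM is given with the range that the interval bounds allow. At P1 the difference was above 1 for 3 of the 4 Id genes, compared with 6.1% of all genes. The log2 difference at P1 was 2.03 for Id1, a ratio of 4.21 (range 3.46 to 4.96). It was 2.24 for Id2, a ratio of 4.90 (4.12 to 5.61), and 2.65 for Id3, a ratio of 6.56 (5.45 to 7.68). By this difference Id3 stood at place 14 among the 21830 genes. For Id4 the log2 difference at P1 was 0.79 and the ratio 1.78 (1.46 to 2.14), so that Id4 stayed below 2-fold, with a range that includes 2, although its intervals in the fractions did not overlap. The median log2 difference at P1 was 2.14 over the 4 Id genes and 0 over all genes.

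At P4 the difference was above 1 for 4 of the 4 Id genes, compared with 9.85% of all genes. Among genes with an FPKM of 10 or more in the higher library, which all 4 genes have, the share was 11.5% at P1 and 16.6% at P4, with 10.6% and 10% more than 2-fold lower. The log2 difference of Id1 at P4 was 3.40, a ratio of 11.9 (8.63 to 15.4). For Id2 it was 3.90, a ratio of 17.3 (13.1 to 21.3). Id3 had the largest difference of the family also at this age, 4.66, a ratio of 29.0 (21.2 to 35.9), and stood at place 6 among all genes. For Id4 the log2 difference was 2.09 and the ratio 5.42 (3.59 to 7.45). The median at P4 was 3.65 over the 4 Id genes and 0 over all genes. The order Id3, Id2, Id1, Id4 was the same at both ages, but the ranges of Id3 and Id2 and those of Id2 and Id1 overlapped at each age. At both ages together 3 of the 4 Id genes were higher in pHes1_EPCs by more than 2-fold, compared with 4.61% of all genes and 8.82% of those with an FPKM of 10 or more in 1 library. The fractions are mixtures of cells, and in such samples fewer cells of a type and less RNA per cell cannot be told apart.

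**Figure D2:**
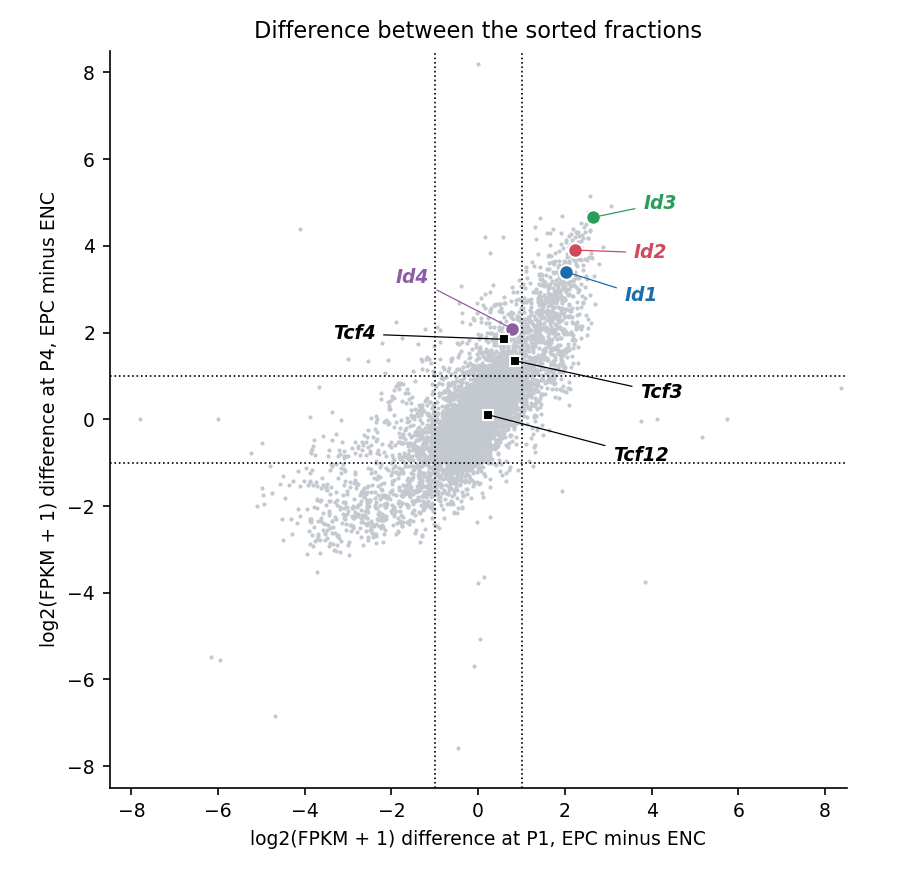
Log2(FPKM + 1) difference between pHes1_EPC and pHes1_ENC at P1 (horizontal) and P4 (vertical) for genes with an FPKM of 10 or more in 1 library (grey), the Id genes (colored circles) and the E protein genes (black squares). Dotted lines mark 2-fold. Id1, Id2 and Id3 lie at the upper right edge of the cloud, with Id3 at 2.65 and 4.66, whereas Id4 is past 2-fold at P4 only, with 0.79 and 2.09.

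The difference between the fractions was larger at P4 than at P1 for each Id gene. On the log2 scale the P4 difference exceeded that at P1 by 1.37 for Id1, 1.66 for Id2, 2.01 for Id3 and 1.30 for Id4. An excess above 1 was thus found for 4 of 4 genes, compared with 7.18% of all genes and 11.7% of those with an FPKM of 10 or more in 1 library. The median excess of the latter genes was 0.20. With quantile normalization the excess was 1.01 for Id1 and 0.95 for Id4, so that Id4 was then below 1. The changes from P1 to P4 within each fraction, which use the same 4 libraries, show on which side the values moved apart.

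In pHes1_ENCs the level at P4 was below the level at P1 for every Id gene, by more than 2-fold for 4 of 4, compared with 5.94% of all genes, while 2.77% were more than 2-fold higher. Of genes with an FPKM of 10 or more in the higher library 6.79% were lower and 6.03% higher in this way. The P1 level was 3.58 times the P4 level for Id1 (range 2.50 to 4.92), 3.92 times for Id2 (2.89 to 5.19), 2.94 times for Id3 (2.03 to 4.01) and 5.01 times for Id4 (3.32 to 6.87). The log2 changes in this fraction were -1.70, -1.81, -1.42 and -1.98, in the same order. The range of Id4 overlapped that of Id2, and with quantile normalization both changed by -1.78, so that these genes cannot be ranked.

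In pHes1_EPCs 0 of 4 Id genes differed between the ages by more than 2-fold in either direction, whereas 4.17% of all genes were more than 2-fold higher at P4 and 2.57% more than 2-fold lower. Of those with an FPKM of 10 or more in the higher library the shares were 7.56% and 4.72%. The P4 level was 0.790 times the P1 level for Id1 (range 0.696 to 0.902), 0.900 times for Id2 (0.812 to 0.997) and 0.609 times for Id4 (0.506 to 0.744). For Id3 it was 1.501 times the P1 level (1.36 to 1.64). The log2 changes were -0.34 for Id1, -0.15 for Id2, 0.58 for Id3 and -0.68 for Id4. Id3 was therefore the member that was higher at P4 in pHes1_EPCs and lower at P4 in pHes1_ENCs. These small changes depend on the scaling, because the median gene with an FPKM of 1 or more in all libraries had a log2 change of 0.20 in pHes1_EPCs. With median-of-ratios scaling this median was 0.02, and the log2 changes in pHes1_EPCs were -0.53 for Id1, -0.35 for Id2, 0.39 for Id3 and -0.87 for Id4, so that the directions were the same. The change of Id3 was smaller with the same FPKM total in each library, 0.25, and with quantile normalization, 0.15. With the same total the change of Id4 was -1.03, past 2-fold. Being more than 2-fold lower at P4 in pHes1_ENCs and above 0 in pHes1_EPCs, as Id3 was, was found for 1.8% of all genes and 2.96% of those with an FPKM of 10 or more in 1 library.

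**Figure D3:**
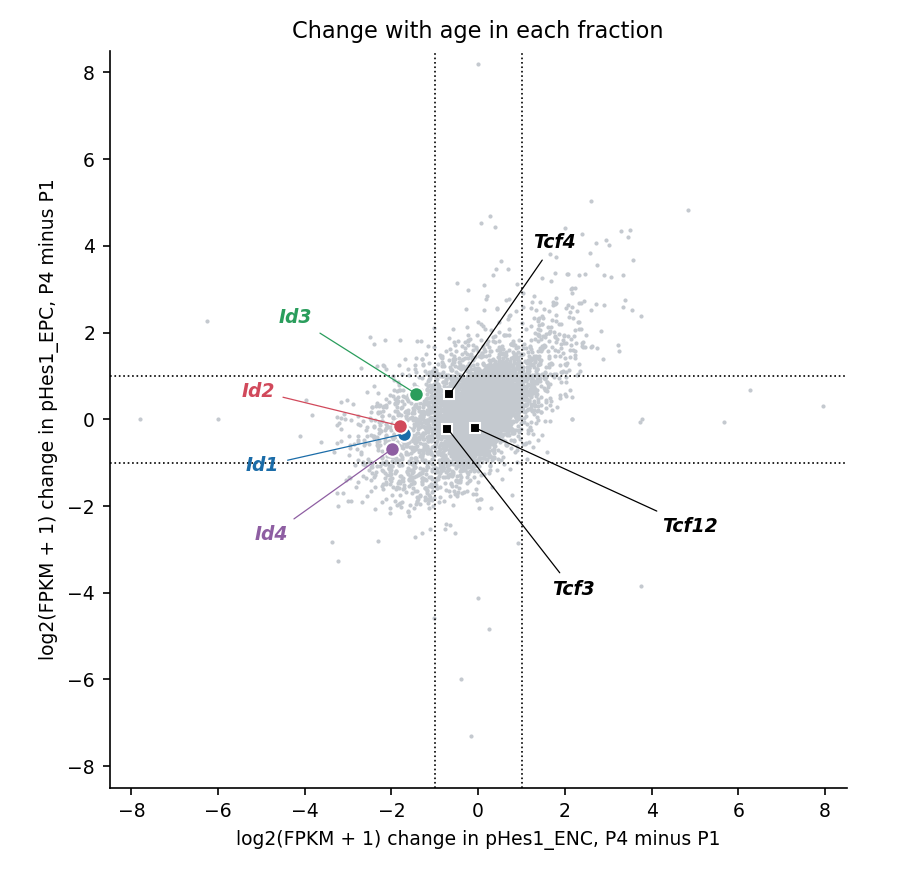
Log2(FPKM + 1) change from P1 to P4 in pHes1_ENC (horizontal) and in pHes1_EPC (vertical), for the same genes and with the same symbols as in the plot of the differences between the fractions. The 4 Id genes lie left of the dotted 2-fold line at -1 and between the horizontal 2-fold lines, with Id3 as the only Id gene above 0 (0.58).

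The order of the levels differed between the fractions. In P1 pHes1_ENC it was Id1, Id2, Id3, Id4, but the intervals of Id1 and Id2 overlapped, and so did those of Id3 and Id4. In P4 pHes1_ENC the first 3 genes lay within 5.99 to 6.82 with overlapping intervals of neighbors, and only Id4 stood apart, at 2.78. In P1 pHes1_EPC Id3 and Id2 overlapped, and Id1 and Id4 followed with separate intervals. In P4 pHes1_EPC the order was Id3, Id2, Id1, Id4, and none of the neighbors overlapped. Since the offset of the interval differs between the genes, close places in this order are uncertain.

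The summed FPKM of the 4 Id genes was 80.9 in pHes1_ENC and 367.97 in pHes1_EPC at P1, and 22.1 and 388 at P4. The sum in pHes1_EPCs was 4.55 times that in pHes1_ENCs at P1 and 17.6 times at P4. Its composition also differed. Id3 made up 23.6% of the sum in pHes1_ENC and 34.1% in pHes1_EPC at P1, and 29.4% and 48.5% at P4. For Id4 the share at P1 was 17.2% in pHes1_ENC and 6.72% in pHes1_EPC, and the P4 shares were 12.6% and 3.88%. In P4 pHes1_EPC nearly all Id transcripts therefore came from Id1, Id2 and Id3.

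The E proteins, the main partners of Id proteins, are encoded by Tcf3 (E2A), Tcf4 (E2-2) and Tcf12 (HEB). The FPKM of Tcf3 was 41.5 in pHes1_ENC and 75.9 in pHes1_EPC at P1, and 25.0 and 65.3 at P4. For Tcf4 it was 40.03, 61.4, 24.9 and 92.1, and for Tcf12 41.0, 48.3, 39.0 and 42.0, in the same order. None of the 3 was more than 2-fold different at P1. At P4 2 of 3 were more than 2-fold higher in pHes1_EPCs, compared with 9.85% of all genes. Tcf3 had a log2 difference of 1.35 and Tcf4 of 1.85. Tcf12 differed by 0.23 at P1 and 0.10 at P4, less than any Id gene. The median log2 difference of the 3 genes was 0.61 at P1 and 1.35 at P4, below that of the Id genes at each age. Taken singly, Tcf3 differed by 0.86 at P1, more than Id4 with 0.79, and Tcf4 differed by 0.61.

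Set against the E proteins, the summed FPKM of the Id genes was 0.660 times the summed FPKM of Tcf3, Tcf4 and Tcf12 in P1 pHes1_ENC and 1.98 times in P1 pHes1_EPC. At P4 it was 0.248 times in pHes1_ENC and 1.95 times in pHes1_EPC. The ratio of Id to E protein transcripts was therefore 3.002 times as high in pHes1_EPCs at P1 and 7.84 times as high at P4. Within pHes1_EPCs the ratio at P4 was 0.982 times that at P1, and within pHes1_ENCs it was 0.376 times. With interval midpoints in place of the FPKM the 4 ratios were lower, 0.565, 1.64, 0.222 and 1.59, in the order P1 pHes1_ENC, P1 pHes1_EPC, P4 pHes1_ENC and P4 pHes1_EPC. These are ratios of transcripts and not of proteins.

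**Figure D4:**
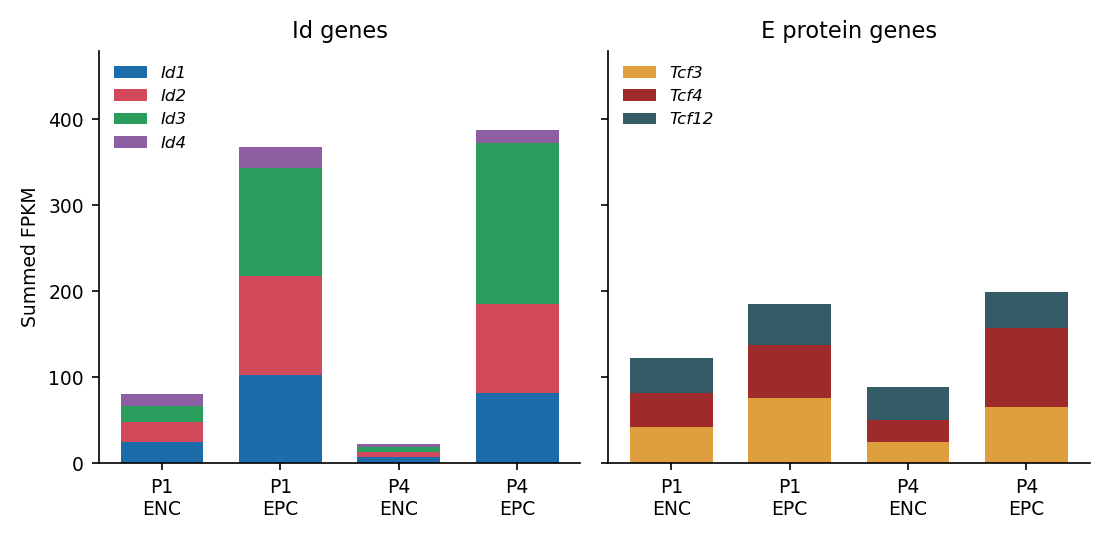
Summed FPKM of the Id genes (left) and of the E protein genes Tcf3, Tcf4 and Tcf12 (right) in each library, stacked by gene. The Id sum is 22.1 in P4 pHes1_ENC and 388 in P4 pHes1_EPC, whereas the E protein sum ranges only from 88.9 to 199 over the 4 libraries.

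Tissue-restricted bHLH activators, whose pairing with E proteins the Id proteins compete with, were distributed differently. Of the 12 genes in this list, 0 were higher in pHes1_EPCs by more than 2-fold at P1 and 8 were more than 2-fold lower, with a median log2 difference of -2.44. More than 2-fold lower values were found for 6.79% of all genes at P1 and 5.42% at P4. At P4 2 genes were more than 2-fold higher and 6 more than 2-fold lower, and the median was -0.92. Those lower at both ages with an FPKM of 10 or more in 1 library were Atoh7, Neurod1, Neurod4, Ptf1a and Nhlh2. Neurod1, a factor of photoreceptors and amacrine cells, had an FPKM of 521 in P1 pHes1_ENC and 21.6 in P1 pHes1_EPC, where the Id sum was 80.9 and 367.97. At P4 it was 974 and 195.5, with Id sums of 22.1 and 388. The log2 differences of Atoh7, required for ganglion cells, were -4.11 and -1.53, and those of Ptf1a, required for amacrine and horizontal cells, -3.88 and -1.41. For Neurod4 they were -4.94 and -1.94 and for Nhlh2 -4.26 and -1.42. Neurog2, a proneural factor of progenitors, had an FPKM of 74.3 in pHes1_ENC and 19.3 in pHes1_EPC at P1, and 13.2 and 66.7 at P4. It was thus lower in pHes1_EPCs at P1 and higher at P4, when all Id genes were higher in the same fraction. Of the 7 other retinal bHLH repressors, 1 was more than 2-fold higher and 2 lower at P1, and 3 higher and 1 lower at P4, with medians of -0.06 and 0.82. Over all genes the shares were 6.1% higher and 6.79% lower at P1, and 9.85% and 5.42% at P4. None of the 7 repressors was past 2-fold in the same direction at both ages with an FPKM of 10 or more.

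The Notch target genes, most of which encode Hes and Hey repressors, were closest to the Id genes by their medians among the 9 related lists. Of 6 genes 5 were higher in pHes1_EPCs by more than 2-fold at each age. Over all genes 6.1% were higher in this way at P1 and 9.85% at P4. The median log2 differences of the 6 genes were 2.20 at P1 and 3.72 at P4, compared with 2.14 and 3.65 for the Id genes. The sort itself used the Hes1 promoter, and Hes1 is among these 5 genes. The FPKM of Hes1 was 105 in P1 pHes1_EPC and 93.5 in P4 pHes1_EPC, compared with 16.6 and 3.59 in pHes1_ENC. Hes5, Hey2, Heyl and Nrarp were the other 4, with log2 differences at P4 of 4.23, 3.44, 3.69 and 3.75. In pHes1_ENCs 4 of the 6 were more than 2-fold lower at P4 than at P1, compared with 5.94% of all genes. In pHes1_EPCs 0 of 6 were past 2-fold, as for the Id genes, and 4.17% of all genes were higher and 2.57% lower. Markers of progenitors and Müller glia, which are not among the 9 lists, also had high medians between the fractions. These were 1.99 at P1 and 3.19 at P4 for progenitors, and 1.62 and 3.37 for Müller glia.

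BMP signaling genes were mostly low, and counts for low genes depend on the pseudocount. Among the BMP ligands, 4 of 10 had an FPKM of 1 or more in any library. Of these 10 genes 1 was more than 2-fold higher and 1 lower in pHes1_EPCs at P1, and 1 higher and 0 lower at P4, with medians of -0.0047 and 0.23. The shares over all genes were 6.1% higher and 6.79% lower at P1 and 9.85% and 5.42% at P4. With the pseudocount of 1 these counts are thus near the background. With a pseudocount of 0.1 the counts were 3 higher and 3 lower at P1, and 4 and 1 at P4. Of the 21830 genes 2057 were then higher and 2470 lower at P1, and 3212 and 1963 at P4. The reading of the ligand counts therefore depends on the pseudocount. The ligand gene higher at both ages, Bmp3, had an FPKM of 0.201 in pHes1_ENC and 1.85 in pHes1_EPC at P1, and 0.339 and 3.84 at P4. Among 8 BMP antagonists 1 was lower by more than 2-fold at P1 and 1 higher at P4, with medians of -0.07 and 0.02, and 3 of 8 had an FPKM of 1 or more in any library. Of the 10 BMP receptors and Smads, 0 were past 2-fold at P1, whereas at P4 1 was higher, the receptor gene Bmpr1b, and 2 were lower, Bmpr2 and Acvr2b. Their medians were 0.05 and 0.06. The FPKM of Bmpr1b was 1.13 in pHes1_ENC and 3.22 in pHes1_EPC at P1, and 0.344 and 4.62 at P4. Its FPKM ratio was thus 2.84 at P1, where its log2 difference was 0.98. The FPKM of Smad1 and Smad5, which carry the BMP signal, was 12.3 to 16.99 and 26.7 to 35.8 over the 4 libraries. Over the same libraries Id4 ranged from 2.78 to 24.7 and Id3 from 6.49 to 188. These are transcript levels, and the part of BMP signaling in the Id values was not tested. No gene of these 3 lists was past 2-fold in the same direction at both ages with an FPKM of 10 or more.

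The median log2 differences of 6 other genes known as BMP targets were 0.41 at P1 and 0.28 at P4. Of the 6, 1 was more than 2-fold higher in pHes1_EPCs at each age, compared with 6.1% and 9.85% of all genes. That gene was Atoh8, a bHLH factor, with an FPKM of 2.45 in pHes1_ENC and 8.49 in pHes1_EPC at P1, and 0.548 and 7.01 at P4. The inhibitory Smads stayed within 2-fold, with log2 differences of 0.72 and 0.49 for Smad6 and of -0.82 and 0.08 for Smad7 at P1 and P4. The pseudoreceptor gene Bambi had log2 differences of 0.91 and 0.89, but its FPKM ratios were 2.46 and 2.66. With a pseudocount of 0.1 the count of the list was 2 higher at each age. The homeobox genes Msx1 and Msx2 had an FPKM of at most 0.233 and 0.026 in any library.

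Among 5 genes for other Id partners and for Id protein turnover, Usp1 was higher in pHes1_EPCs by more than 2-fold at both ages. Usp1 encodes a deubiquitinase that stabilizes Id proteins. Its FPKM was 23.9 in pHes1_ENC and 88.3 in pHes1_EPC at P1, and 13.3 and 40.2 at P4, and unlike the Id genes its log2 difference was no larger at P4 (1.52) than at P1 (1.84). Fzr1, which directs the anaphase-promoting complex to substrates that include Id proteins, had log2 differences of 0.14 and 0.01. The retinoblastoma gene Rb1, a partner of Id2, had -0.23 and -0.04. Of the ETS factor genes, Elk1 was more than 2-fold lower at P4 with -1.26, after -0.75 at P1, and Elk4 had 0.46 at P1 and -0.84 at P4. The medians of the 5 genes were 0.14 and -0.04.

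**Figure D5:**
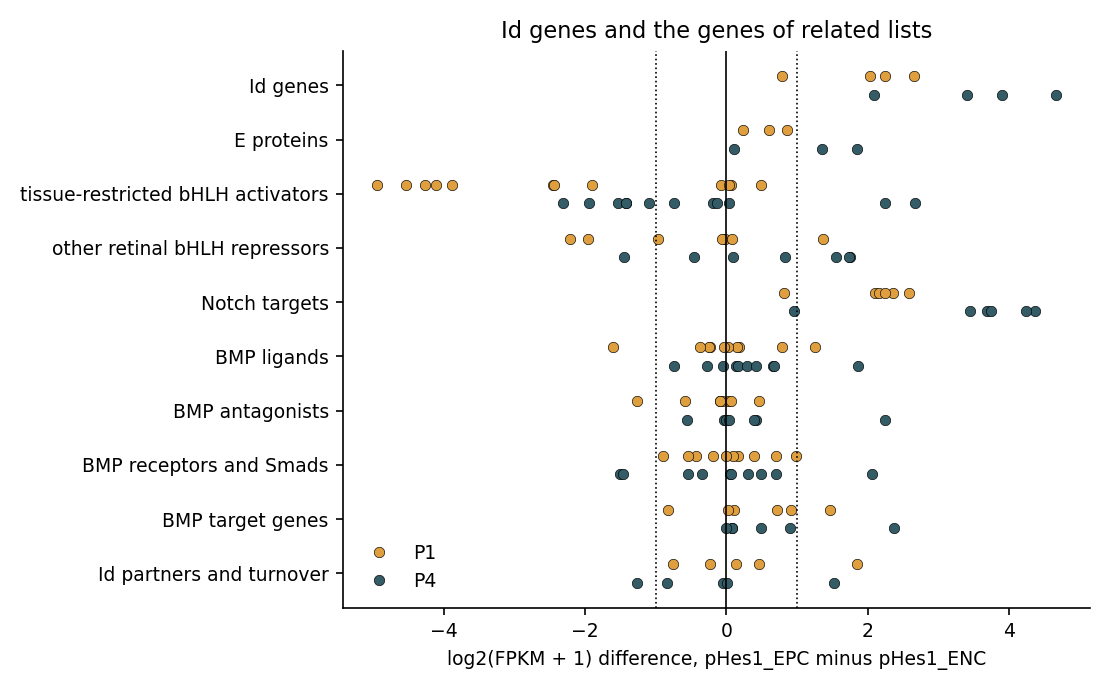
Log2(FPKM + 1) difference between pHes1_EPC and pHes1_ENC at P1 and P4 for each gene (points) of the Id family and of 9 related lists. Dotted lines mark 2-fold. The Id genes and the Notch targets lie to the right, with P4 medians of 3.65 and 3.72, most tissue-restricted bHLH activators lie to the left at P1, and the BMP lists lie around 0, where the pseudocount of 1 places genes of low FPKM whatever their ratio.

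Genes with the pattern most like each Id gene were sought among the 8403 genes with an FPKM of 10 or more in 1 library. The measure was the Euclidean distance over the 4 libraries between log2(FPKM + 1) values centered on the mean of each gene. With only 4 libraries a small distance is a description. For Id1 the nearest genes were Gas1, Lrrfip1, Nr2e1, Dtx4 and Yap1, at distances of 0.079 to 0.21, and Gas1, a growth arrest gene of the cell surface, had an FPKM of 24.7, 108, 7.35 and 88.6 in the order of the libraries above. For Id2 they were Kdr, Espn, Irx5, Metrn and Heyl, at 0.089 to 0.19. Kdr, a receptor for vascular endothelial growth factor, had an FPKM of 46.9, 209, 12.01 and 189. For Id3 the nearest genes were S1pr3, Cp, Tagln2, Gpx8 and Cox4i2, at 0.27 to 0.38, so that Id3 had no neighbor as close as those of Id1 and Id2. For Id4 they were Frmd4a, Pde10a, Chst11, 2610318N02Rik and Plxnc1, at 0.15 to 0.27. Within the family Id1 and Id2 were the most alike, at 0.39, and Id3 and Id4 the least, at 2.42. From Hes1 the distance was 0.79 for Id1, 0.41 for Id2, 0.66 for Id3 and 2.07 for Id4.

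Markers of retinal cell types also differed between the fractions and ages. The summed FPKM of 10 Müller glia markers was 506 in pHes1_ENC and 1516 in pHes1_EPC at P1, and 360 and 3016 at P4, and 9, 9, 8 and 9 of them had an FPKM of at least 1. For 8 progenitor markers the sums were 889, 2519, 432 and 1561, all 8 being expressed in each library. For 8 rod markers they were 483, 34.5, 3636 and 715. The Id sum in pHes1_ENCs thus was lower at P4 together with the sums for Müller glia and progenitors and opposite to that for rods, and the part of cell composition in the Id values was not tested. Id genes are also strongly expressed in vessels. The sum of 9 endothelial markers was 63.8, 213, 15.5 and 194.97, but Kdr alone gave 209 of the 213 and 189 of the 194.97, and the defining markers Pecam1, Cdh5, Tek, Tie1 and Emcn had an FPKM of at most 0.142 in any library. Cdh5 and Emcn were at 0 in both P4 libraries. Of the remaining endothelial markers, Cldn5 had 16.3 in P1 pHes1_ENC and 2.59 to 4.06 in the other libraries, and Esam had at most 0.547. Flt1 was higher in pHes1_EPC, with 0.715 against 0.0658 at P1 and 1.41 against 0.110 at P4. The part of vessel cells in the Id values was not tested. The sum of 7 microglia markers was 2.29 in P1 pHes1_ENC and 12.03 in P1 pHes1_EPC, and 8.19 and 11.7 at P4. At P1 4 of the 7 were more than 2-fold higher in pHes1_EPC, compared with 6.1% of all genes. For 5 pericyte markers the P1 sums were 0.943 in pHes1_ENC and 2.47 in pHes1_EPC, and the P4 sums 0.259 and 1.92. Pdgfrb alone gave 1.68 of the 2.47 and 1.52 of the 1.92, and Cspg4 was also higher in pHes1_EPC. Rgs5, Kcnj8 and Abcc9 had an FPKM of at most 0.144 in any library. For 5 astrocyte markers the sums were 3.89 and 4.98, then 7.48 and 15.2. Of the 15.2 Pdgfra gave 11.1, whereas Gfap and Pax2 were lower in pHes1_EPC than in pHes1_ENC at P4. The part of microglia, pericytes and astrocytes in the Id values was not tested. The 5 red cell markers summed to 137 and 329 in pHes1_ENCs and to 0.586 and 5.82 in pHes1_EPCs at P1 and P4, and the 6 pigment epithelium markers to 3.40 to 7.16 in 3 libraries and to 61.0 in P4 pHes1_EPC.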

How the data were processed

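RNA of sorted EGFP-positive and EGFP-negative retinal cells was sequenced at P1 and P4, with 1 library for each group and single-end reads of 36 bases. According to the methods and the submitters' processing notes, base calls were converted with bcl2fastq 1.8.4, reads were aligned to NCBI37/mm9 with TopHat 2.0.8b, allowing up to 50 positions for a read, and the authors deposited gene FPKM with 95% intervals from Cufflinks 2.1.1. The FPKM were used as deposited. Read counts were not used here, so the depth is known only through the intervals.

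The tables were joined by symbol, locus and start site. Small RNAs were left out by symbol (794 lines of 23021), and for the 234 other symbols with more than 1 line that with the highest FPKM was kept. Differences are on the log2(FPKM + 1) scale. No test was made, because each group had 1 library. The Id genes, the gene lists and the threshold were chosen with earlier results of these data known. Genes are named if they are Id genes, E proteins, BMP targets or genes for Id partners and turnover, if a listed gene was past 2-fold at both ages in 1 direction with an FPKM of at least 10 in 1 library, or if they are among the 5 nearest to an Id gene. Neurog2, Bmpr1b, Bmpr2, Acvr2b, Smad1 and Smad5 were named after their values were seen, and 1 gene of the lists is not reported here by name.

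Alternatives were other pseudocounts, 3 scalings, filters on FPKM, small RNAs kept, lines summed, E proteins left out and, added after seeing the data, interval midpoints. Python 3.11.15, numpy 2.4.6, pandas 2.3.3 and matplotlib 3.10.9 were used.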

Additional observations from a re-analysis of the deposited data

Results flagged for a closer look

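Id3 was flagged because its change from P1 to P4 ran in opposite directions in the sorted fractions, with intervals that did not overlap in either. Its FPKM was 19.1 at P1 and 6.49 at P4 in pHes1_ENCs, and 125 and 188 in pHes1_EPCs. The log2 changes of -1.42 and 0.58 differ by 2.01. The change of 0.58 was 0.39 with median-of-ratios scaling, 0.25 with the same FPKM total and 0.15 with quantile normalization. The difference was not tested, since there is 1 library for each group.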

How the results depend on the processing

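No paired analysis was possible because each group has 1 library. The log2 differences between the fractions and between the ages and the change of the difference gave 140 values for the Id genes under 7 alternatives. Of these, 125 lay within the range of the deposited intervals and none changed direction. The 20 values from summed lines could not differ, since each Id gene has 1 line. Another 20, from interval midpoints, lie within the range by construction. Past the range, the change of Id1 in pHes1_EPCs was -0.67 with the same FPKM total in each library, -0.53 with median-of-ratios scaling and -0.69 with quantile normalization. In the same order it was -0.49, -0.35 and -0.54 for Id2 and 0.25, 0.39 and 0.15 for Id3. With the same total it was -1.03 for Id4, past 2-fold, and the change of Id4 in pHes1_ENCs was -2.34. Quantile normalization gave P4 differences between the fractions of 3.48 for Id2 and 4.20 for Id3. Without a pseudocount Id4 had 2.44 at P4 and a change of -2.33 in pHes1_ENCs. The P1 difference of Id4 stayed below 1 under every alternative run, from 0.73 to 0.83. Within the range, the excess of its P4 over its P1 difference fell below 1 with quantile normalization, to 0.95.

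The ratio of Id to E protein sums in P1 pHes1_ENC was 0.998 without Tcf3, 0.980 without Tcf4 and 0.992 without Tcf12. In P1 pHes1_EPC it was 3.35, 2.96 and 2.68, in P4 pHes1_ENC 0.345, 0.345 and 0.442, and in P4 pHes1_EPC 2.89, 3.61 and 2.47, in the same order. With interval midpoints the ratio was 0.565 in P1 pHes1_ENC, 1.64 in P1 pHes1_EPC and 1.59 in P4 pHes1_EPC.

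Counts over all genes depended on the pseudocount and on the filter on low FPKM, and the count lower at P4 also on scaling to the same total. The cause was not tested. At P1, 2057 genes were higher in pHes1_EPCs by more than 2-fold with a pseudocount of 0.1, 3008 without one and 876 with an FPKM of at least 10, compared with 1331, and 2470, 3816 and 809 were lower, compared with 1483. At P4, 4390 were higher without a pseudocount and 1291 with an FPKM of at least 10, compared with 2150. The lower ones at P4 numbered 1963 with a pseudocount of 0.1, 3182 without one, 779 with an FPKM of at least 10 and 2170 with the same total, compared with 1184. With a pseudocount of 0.1 the BMP ligands had 3 higher and 3 lower at P1 and 4 higher and 1 lower at P4. The BMP receptors and Smads had 1 higher at P1, the BMP targets 2 higher at each age, the BMP antagonists 2 lower at P1 and 1 lower at P4, and the Id partners and turnover genes 2 lower at P4. The depth limits low genes most, as the interval of Id4 in P4 pHes1_ENC spans 25.0% of its midpoint on each side.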
